A study of Mus musculus with 6 samples.

Results

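Integrins are cell-surface receptors made of one α and one β chain, and the 36 genes described here encode 26 integrin subunits together with 10 proteins that attach the β tail to the cytoskeleton. They were taken by gene symbol from a table of 17714 genes, and all 36 were found. RNA had been sequenced from mouse heart cells labelled as lymphatic endothelial cells, wild type, in 3 libraries from sham-operated animals and 3 from animals with myocardial infarction (MI), all labelled day 3. The protocol text speaks of heart tissue or primary heart endothelial cells, names DMEM with serum as the medium and gives no sorting step. Nothing says that the libraries came from separate animals, so p-values cover the spread among these libraries alone, which may be technical. The sham and MI libraries differ in depth and perhaps in preparation, which cannot be told apart from the operation.

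An integrin is switched from a folded to an extended form when talin and a kindlin bind the tail of its β chain. Vinculin, integrin-linked kinase (Ilk) and the parvins then join it to actin. β2 and β7 integrins are made by leukocytes and bind other cells. Most β1, β3, β4 and β5 integrins bind fibronectin, vitronectin, laminins or collagens, and hold endothelial cells, muscle cells and fibroblasts on their matrix. In blood cells the kindlin is Fermt3 and the parvin is Parvg, whereas Fermt2 and Parva serve in adherent cells.

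Sham libraries held 3206732 to 3591473 estimated counts and MI libraries 21154342 to 21689333, so depth followed the group. With MI counts thinned to the depth of sham, 15 members were called higher and 12 lower, of 30 tested, beside 35.2% of all genes called higher and 37.1% lower in that fit (72.3% in all). Markers of several cell types were present and moved with the group. Of the macrophage and monocyte markers, 12 of 12 were higher in MI, with a summed TPM (a level scaled to transcript length and library total) between 6963 and 7330 for sham and between 28568 and 30337 for MI. Of the neutrophil markers, 6 of 7 tested were higher (summed TPM 86.2 to 112 and 1686 to 2074). All 12 pan-endothelial markers were lower (6199 to 6271 and 1192 to 1221), as were all 10 cardiomyocyte markers (5078 to 5143 and 195 to 227) and all 9 mural cell markers (2038 to 2056 and 495 to 521). Of 9 lymphatic markers 7 were lower, with a summed TPM of 329 to 366 for sham and 33.5 to 36.04 for MI. The 2 that were higher, Pdpn and Nrp2, summed to 78.6 to 82.6 and 257 to 303 TPM. Of 9 fibroblast markers 5 were lower (919 to 973 and 152 to 186) and 4, the collagen genes Col1a1, Col1a2 and Col3a1 and the matrix gene Postn, were higher (243 to 254 and 650.1 to 752). Prox1, the transcription factor that defines lymphatic endothelium, stood at 1.76 ± 0.127 TPM in sham and 0.283 ± 0.117 TPM in MI (SD, n = 3), beside Pecam1, a junction protein of all endothelium, at 940.4 ± 8.46 and 204 ± 8.27 TPM. T, NK and B cell markers were low in both groups (summed TPM 10.7 to 14.2 and 9.97 to 10.5), and Cd3g, Nkg7 and Ncr1 were at 0 in sham and Cd3e at 0 in MI. Of 2 tested epithelial markers, Scgb1a1 fell from 32.6 ± 3.69 to 0.287 ± 0.250 TPM and Cdh1 rose from 0.0367 ± 0.0635 to 1.25 ± 0.166 TPM. The part of these cell types in the results below was not tested. In such bulk samples, fewer cells of a type and less RNA per cell cannot be told apart.

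Leukocyte integrins were higher in MI, matrix-binding subunits moved in both directions, and the blood-cell adaptors rose while their counterparts in adherent cells fell. Of 36 members, 31 passed the filter on low counts, and 26 of these passed an adjusted p of 0.05 (the quasi-likelihood test of edgeR, Benjamini-Hochberg adjusted over all genes), 15 higher and 11 lower. Over all 13370 genes tested, 73.3% passed in either direction, 36.4% higher and 36.9% lower, beside 83.9% of the 31 members. CPM (counts scaled to the TMM-adjusted library total) did not overlap between the groups at 27 of 31 members, against 76.1% of all genes. The median log2 fold change of the 31 members was 0.29, beside -0.01 over all genes tested. With libraries scaled to total counts that median was -0.06, and the median of all genes moved to -0.36. The plot of levels by library shows all 36 members.

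**Figure D1:**
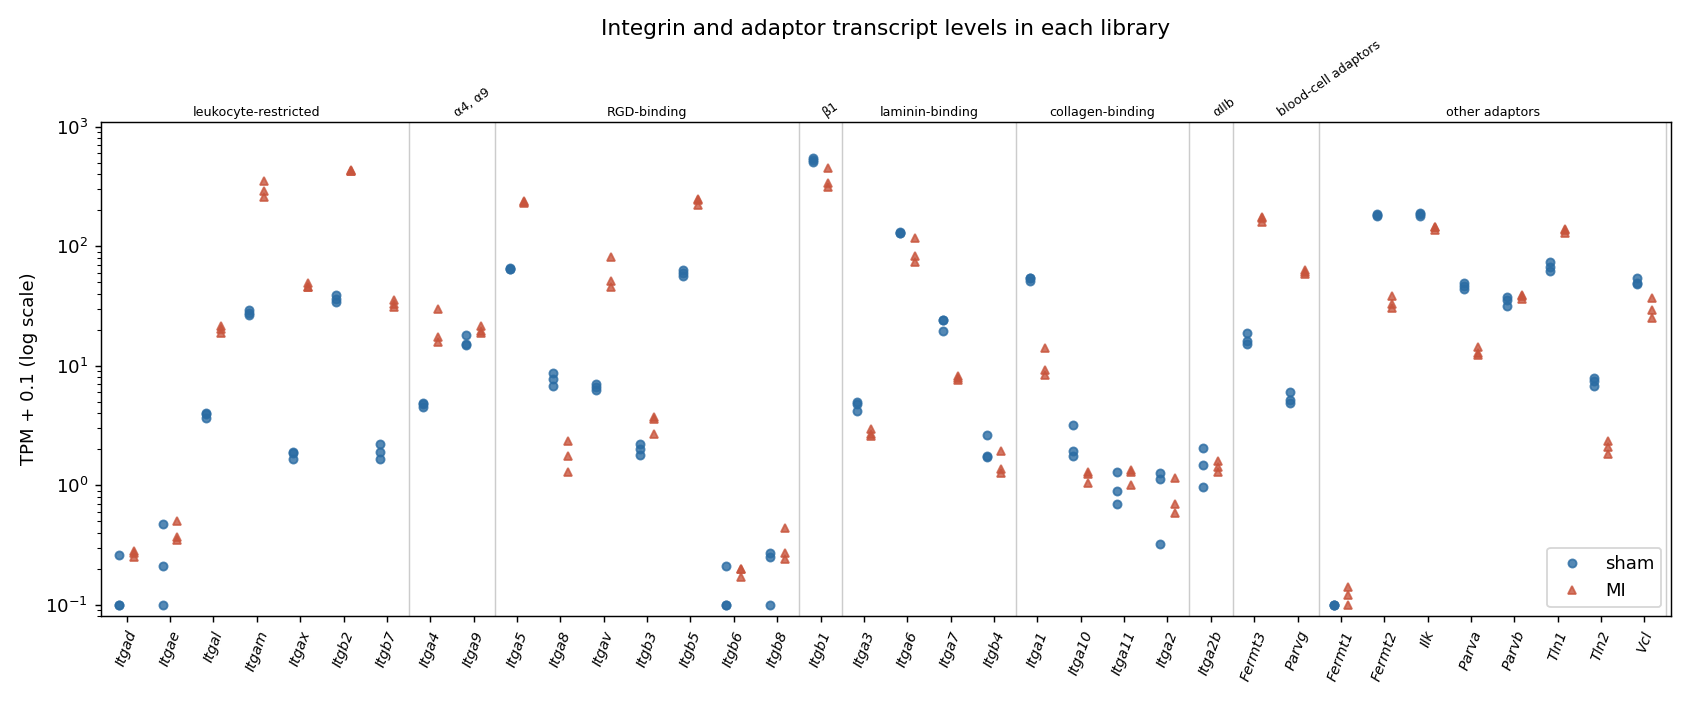
Level of each member in each library, as TPM + 0.1 on a log axis, with circles for the 3 sham and triangles for the 3 MI libraries. Itgb2 lies at 33.8 to 38.9 TPM in sham and 427 to 433 TPM in MI, while Itgb1 lies at 511 to 543 and 312 to 450.01 TPM.

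Among the 7 leukocyte-restricted subunits, 5 were tested and all 5 rose, beside 36.4% of all genes tested. Itgb2, the β chain shared by the leukocyte integrins that bind ICAMs and complement, was at 36.1, 33.8 and 38.9 TPM in sham 1, 2 and 3 and at 427.05, 427 and 433 TPM in MI 1, 2 and 3. Every MI library lay far above every sham library. Its log2 fold change in CPM was 3.73 ± 0.09 (SE) (13.2-fold; edgeR quasi-likelihood adjusted p = 3.24e-11). Itgam, the α chain of the complement receptor Mac-1 on macrophages and neutrophils, was at 27.7, 29.3 and 26.3 TPM in sham and at 351, 256 and 292 TPM in MI. It rose by 3.58 ± 0.10 (SE) on the log2 scale, with MI 1 the highest library. Itgax, the α chain of the receptor known as CD11c on dendritic cells and some macrophages, had the highest fold change of the 31 tested members. It was at 1.76, 1.80 and 1.56 TPM in sham and at 49.4, 45.7 and 45.8 TPM in MI, a 29.9-fold rise (log2 fold change 4.90 ± 0.13, SE). On the log2(TPM + 1) scale of limma this came to 4.15. Itgax had 41.8 estimated counts over the sham libraries and 6204 over the MI libraries. Of 7 dendritic cell markers 4 rose and 3 fell (median log2 fold change 2.73), with a summed TPM of 58.0 to 71.2 for sham and 45.3 to 47.8 for MI. The 3 that fell, Zbtb46, Clec9a and Siglech, summed to 54.3 to 67.8 TPM for sham and 12.25 to 14.4 TPM for MI. The 4 that rose summed to 2.80 to 3.68 TPM for sham and 33.0 to 35.3 TPM for MI. Zbtb46, a factor that endothelium also makes, went from 49.3 ± 5.90 to 9.08 ± 1.29 TPM. Itgal, the α chain of LFA-1, which is abundant on lymphocytes, rose less, from 3.57, 3.95 and 3.82 TPM to 21.3, 18.8 and 20.3 TPM (6.18-fold).

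Itgb7, the β chain that pairs with Itga4 for homing to the gut and with Itgae in epithelia, was at 1.78, 1.57 and 2.12 TPM in sham and 30.8, 35.3 and 32.9 TPM in MI. It rose 20.4-fold (log2 fold change 4.35 ± 0.20, SE), or by 3.59 on the log2(TPM + 1) scale. Itgb7 had 29.0 estimated counts over the sham libraries and 2939 over the MI libraries. Its partner Itgae was not tested, with 3.84 estimated counts over the sham libraries and 39.0 over the MI libraries. Itgae reached no more than 0.40 TPM in any library. Itgad, the fourth α partner of Itgb2, was also not tested, with 1.25 estimated counts over sham and at most 0.18 TPM in any library. The median of the 5 tested subunits was 3.73; the filter keeps genes that are high in one group, and the 2 others could not be called at this depth.

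Itgam, Itgax and Itgad lie side by side on chromosome 7 of GRCm38.p6, all protein coding. Itgam spans 128062640 to 128118491, Itgax 128129526 to 128150657 and Itgad 128173933 to 128205504, and 11.03 kb separate the first 2. Itgal lies apart on the same chromosome, from 127296139 to 127335137. Reads may be divided among such related genes, so their values are uncertain to that extent. The 120 bases before the start listed for the first 2 are shown because these neighbours rose together. They are RefSeq sequences of GRCm38.p6, plus strand, at chr7:128062520-128062639 and chr7:128129430-128129549, printed 5′ to 3′. Capitals mark GAGGAA or its reverse complement TTCCTC, the core recognised by the myeloid factor PU.1. The start listed for Itgax lies 24 bases inside the span of the gene given above.
Itgam: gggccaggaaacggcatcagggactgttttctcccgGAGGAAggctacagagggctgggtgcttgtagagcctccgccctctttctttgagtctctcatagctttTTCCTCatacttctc
Itgax: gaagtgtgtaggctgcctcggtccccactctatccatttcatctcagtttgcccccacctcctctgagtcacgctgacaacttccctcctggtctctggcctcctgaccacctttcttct
Itgam held the motif at 84 and 15 bases before the start, and Itgax held none in this window. In windows of 300 bases (250 before to 50 after the start), on both strands, 28.3% of all 32851 RefSeq promoters held the motif. Such promoters were given for 26 of the 36 members (30 windows), of which 11 held it. In that longer window Itgam held a further match 32 bases after the start, and Itgax held none. A match of letters describes the sequence and shows no binding.

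**Figure D2:**
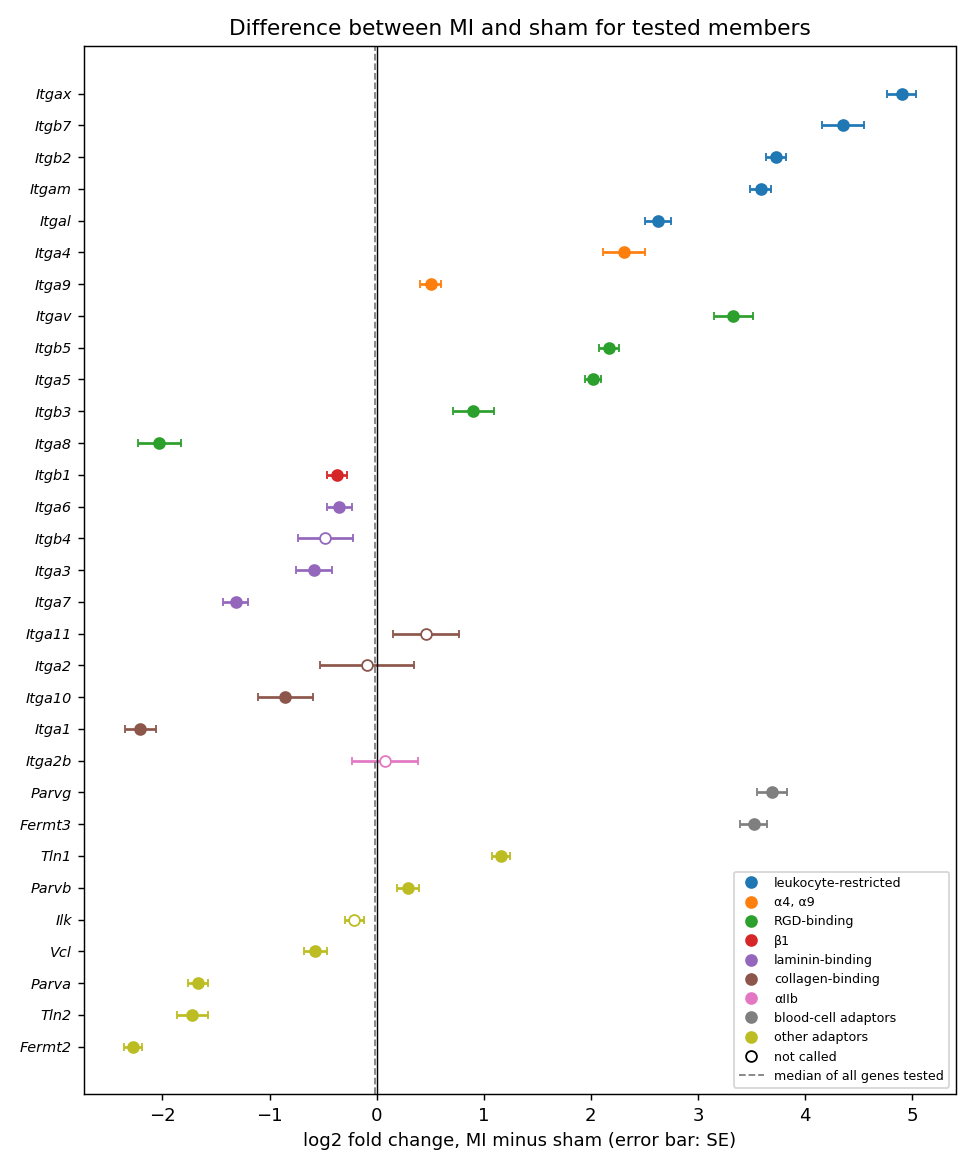
Log2 fold change (MI minus sham, CPM scale) of the 31 tested members with its SE, coloured by class, with open symbols for members that did not pass and a dashed line at the median of all genes tested (-0.01). The 5 leukocyte-restricted subunits run from 2.63 (Itgal) to 4.90 (Itgax), and the other adaptors from -2.27 (Fermt2) to 1.16 (Tln1).

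Itga4 and Itga9, a related pair of α chains, rose by unequal amounts. Itga4 binds VCAM-1 and fibronectin and is carried by monocytes and lymphocytes. It was at 4.81, 4.41 and 4.68 TPM in sham and 29.5, 15.7 and 17.4 TPM in MI, and rose 4.95-fold, or by 2.06 on the log2 scale without MI 1 against 2.31 with it. Itga9, needed for lymphatic valves, was at 17.9, 15.1 and 14.7 TPM in sham and 21.5, 18.6 and 19.6 TPM in MI. It rose 1.42-fold (log2 fold change 0.50 ± 0.10, SE), a call that was lost with libraries scaled to total counts (adjusted p = 0.166 in edgeR's quasi-likelihood test).

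Matrix-binding subunits did not move as one group. Counted here were the collagen-, laminin- and RGD-binding subunits, Itga9 and Itgb1, but not Itga4 or Itga2b. Of these 17 genes 15 were tested, 5 rose, 7 fell and 3 did not pass. That is 80.0% called, beside 73.3% of all genes tested (36.4% higher, 36.9% lower). The median was -0.35 and ran from -0.70 to -0.02 over the alternatives. The subunits that rose were 4 that recognise the RGD sequence of fibronectin and vitronectin, and Itga9. Itgav, the α chain of the vitronectin receptors that also release TGF-β, was at 6.51, 6.11 and 6.86 TPM in sham and 81.3, 45.5 and 51.5 TPM in MI. Its rise was 10.1-fold with MI 1 standing highest, and the log2 fold change was 3.12 without MI 1 against 3.33 with it. Itga5, the α chain of the main fibronectin receptor, was at 64.0, 64.1 and 66.0 TPM in sham and 237, 232 and 234 TPM in MI, a 4.05-fold rise. Itgb5, a partner of Itgav, was at 59.2, 63.3 and 55.9 TPM in sham and 221, 246 and 245 TPM in MI, and rose by 2.17 on the log2 scale. Itgb3, the other vitronectin receptor β chain, rose 1.87-fold at a low level, from 1.91 ± 0.210 to 3.21 ± 0.564 TPM (SD, n = 3). Itga8, made by mesenchymal and smooth muscle cells, was the RGD-binding subunit that fell, from 6.69, 8.63 and 7.71 TPM to 2.25, 1.18 and 1.67 TPM (4.08-fold). Itgb6 and Itgb8, which activate TGF-β with Itgav in epithelia and other cells, were not tested and reached no more than 0.34 TPM.

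Laminin-binding and collagen-binding subunits were lower where they passed. Itga7, the laminin receptor α chain of muscle, was at 24.1, 19.6 and 24.2 TPM in sham and 8.10, 7.84 and 7.55 TPM in MI, and fell 2.49-fold. Itga6, the laminin receptor α chain of endothelium, was at 129.7, 130.3 and 128 TPM in sham and 118, 73.0 and 82.7 TPM in MI. The MI libraries lay below the sham libraries but varied more among themselves than they did for Itgb2. Its fall of 0.35 on the log2 scale passed narrowly (adjusted p = 0.0183 in edgeR's quasi-likelihood test), and it did not pass without sham 1, sham 2, sham 3 or MI 3 (adjusted p = 0.0641, 0.0642, 0.0535 and 0.0635 in the same edgeR test). Itga3, also a laminin receptor α chain, fell by 0.59 on the log2 scale, from 4.52 ± 0.420 to 2.65 ± 0.189 TPM. Itgb4, the hemidesmosome β chain, was at 1.94 ± 0.514 and 1.42 ± 0.373 TPM and did not pass (adjusted p = 0.111, edgeR); it did without MI 2 (adjusted p = 0.0377, edgeR) and with libraries scaled to total counts (adjusted p = 0.0113, edgeR).

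Itga1, the collagen receptor α chain found on capillaries, mural cells and fibroblasts, was at 54.0, 54.1 and 51.1 TPM in sham and 14.0, 8.20 and 9.02 TPM in MI. It fell 4.61-fold (log2 fold change -2.21 ± 0.14, SE; adjusted p = 4.25e-08 in edgeR's quasi-likelihood test). Itga2, which lies next to it on chromosome 13 with 25.98 kb between them, was at 0.803 ± 0.511 TPM in sham and 0.707 ± 0.293 TPM in MI and did not pass. Itga10, a collagen receptor α chain best known from cartilage, went from 2.19 ± 0.782 to 1.10 ± 0.132 TPM and fell 1.81-fold, but not without sham 1 (adjusted p = 0.111, edgeR). Itga11, its relative on fibroblasts, was at 0.863 ± 0.307 and 1.12 ± 0.189 TPM and did not pass. Itgb1, the β chain of all these collagen receptors and of most laminin receptors, was the most abundant member in sham, at 530.4, 543 and 511 TPM, and was at 450.01, 312 and 340.45 TPM in MI. Its fall of 0.37 on the log2 scale was small beside those of Itga1 and Itga7. Itga2b, the fibrinogen receptor α chain of platelets, was at 1.39 ± 0.535 TPM in sham and 1.48, 1.32 and 1.18 TPM in MI 1, 2 and 3 and did not pass. In the same libraries 2 of 4 tested platelet markers rose, Pf4 and Ppbp, while the platelet receptor gene Gp1ba was at 0.750 ± 0.334 and 0.677 ± 0.270 TPM and did not pass.

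The adaptors changed by paralog. Fermt3, the kindlin of blood cells, was at 15.1, 18.5 and 16.0 TPM in sham and 159, 177 and 173 TPM in MI, and rose 11.5-fold (log2 fold change 3.52 ± 0.12, SE; adjusted p = 2.36e-10 in edgeR's quasi-likelihood test). Fermt2, the kindlin of adherent cells, was at 179.6, 181 and 185 TPM in sham and 38.5, 30.1 and 32.7 TPM in MI, and fell 4.84-fold. The libraries did not overlap for either gene, and the order of the 2 kindlins was opposite in the 2 groups. Fermt1, the epithelial kindlin, had 0 counts in sham, which allows up to 0.259 CPM (a limit of 3 counts, for counting error only) over the group, and 3.14 estimated counts in MI.

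Parvg was at 5.90, 5.04 and 4.78 TPM in sham and 58.0, 60.9 and 62.9 TPM in MI, and rose 12.9-fold. Parva was at 49.1, 46.8 and 43.9 TPM in sham and 14.2, 12.1 and 12.7 TPM in MI, and fell 3.19-fold. Parvb, which is found in heart and skeletal muscle and in many other cells, changed little. It was at 35.3, 31.8 and 37.2 TPM in sham and 38.0, 39.3 and 36.3 TPM in MI, groups that overlapped on this scale. Its log2 fold change in CPM of 0.29 ± 0.10 (SE) was called in edgeR's quasi-likelihood test (adjusted p = 0.0222), but not without sham 1, sham 2 or MI 2 (adjusted p = 0.0538, 0.106 and 0.0854, edgeR). It was not called in limma on log2(TPM + 1) or log2(TPM + 0.1) either (adjusted p = 0.260 and 0.253), and with libraries scaled to total counts in edgeR it was -0.06 (adjusted p = 0.616). Parvb and Parvg are neighbours on chromosome 15, at 84232043 to 84315689 and 84324175 to 84342978 of GRCm38.p6, 8.49 kb apart and read in the same direction. The 120 bases before their starts are set side by side because these neighbours differed in response. They lie at chr15:84231923-84232042 and chr15:84324600-84324719 on the plus strand, from RefSeq and GRCm38.p6, with the same motif in capitals; for Parvg the first of 2 listed start sites is shown, which lies 545 bases inside the span of the gene given above.
Parvb: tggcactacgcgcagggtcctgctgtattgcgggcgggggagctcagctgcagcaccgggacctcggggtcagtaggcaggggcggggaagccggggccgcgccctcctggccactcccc
Parvg: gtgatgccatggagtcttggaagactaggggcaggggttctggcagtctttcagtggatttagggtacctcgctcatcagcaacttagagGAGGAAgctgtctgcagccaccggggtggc
Parvg held the motif 30 bases before this start and, in the window of 300 bases, again 1 base after it. The window of 300 bases at the other listed start of Parvg held none, and neither did that of Parvb.

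Talins and vinculin moved in different directions. Tln1, the talin of blood and endothelial cells, was at 73.6, 66.6 and 62.2 TPM in sham and 140.45, 130.05 and 137 TPM in MI, and rose 2.23-fold. Tln2, the talin of striated muscle and brain, was at 6.71, 7.80 and 7.34 TPM in sham and 2.26, 1.71 and 1.98 TPM in MI, and fell 3.30-fold. Vcl, which encodes vinculin, was at 48.5, 53.7 and 49.0 TPM in sham and 37.1, 25.1 and 29.1 TPM in MI, and fell 1.49-fold. Ilk was at 178, 185 and 190.1 TPM in sham and 137, 143 and 144 TPM in MI. Its log2 fold change in CPM of -0.21 ± 0.09 (SE) did not pass (adjusted p = 0.0515 in edgeR's quasi-likelihood test), but it did in 6 alternatives. In edgeR these were the fits without MI 2 (adjusted p = 0.0225), with MI thinned (0.0240), with a stricter filter on low counts (0.0222) and with total counts (1.04e-04). In limma they were the fits of log2(TPM + 1) and log2(TPM + 0.1), with adjusted p = 5.19e-04 and 6.01e-04 and a log2 fold change of -0.38 in both.

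Ratios within a library compare paralogs or related members per transcript length. Every gene in the 10 pairs had TPM that did not overlap between the groups, so the ratios are not separate from the member results. CPM did not overlap at 76.1% of all genes, and no such share was computed for other pairs of genes. For every one of 10 ratios the 3 MI libraries lay outside the range of the 3 sham libraries, and each gave p = 0.1 in an exact two-sided permutation test (0.1 adjusted over the 10 ratios), which no arrangement of 3 against 3 libraries can undercut. The ratio of Itgb2 to Itgb1 was 0.0680, 0.0623 and 0.0761 in sham and 0.949, 1.37 and 1.27 in MI, so the leukocyte chain stood near or above the matrix-binding one in MI. Fermt3 to Fermt2 was 0.0839, 0.102 and 0.0867 in sham and went to 5.10 ± 0.891 (SD, n = 3), the largest difference of the 10 at 5.80 log2 units. Parvg to Parva went from 0.112 ± 0.00678 to 4.69 ± 0.523. Tln1 exceeded Tln2 in both groups, 9.32 ± 1.42 times in sham and 69.1 ± 6.95 times in MI. Vcl to Tln1 fell from 0.751 ± 0.0802 to 0.223 ± 0.0367.

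**Figure D3:**
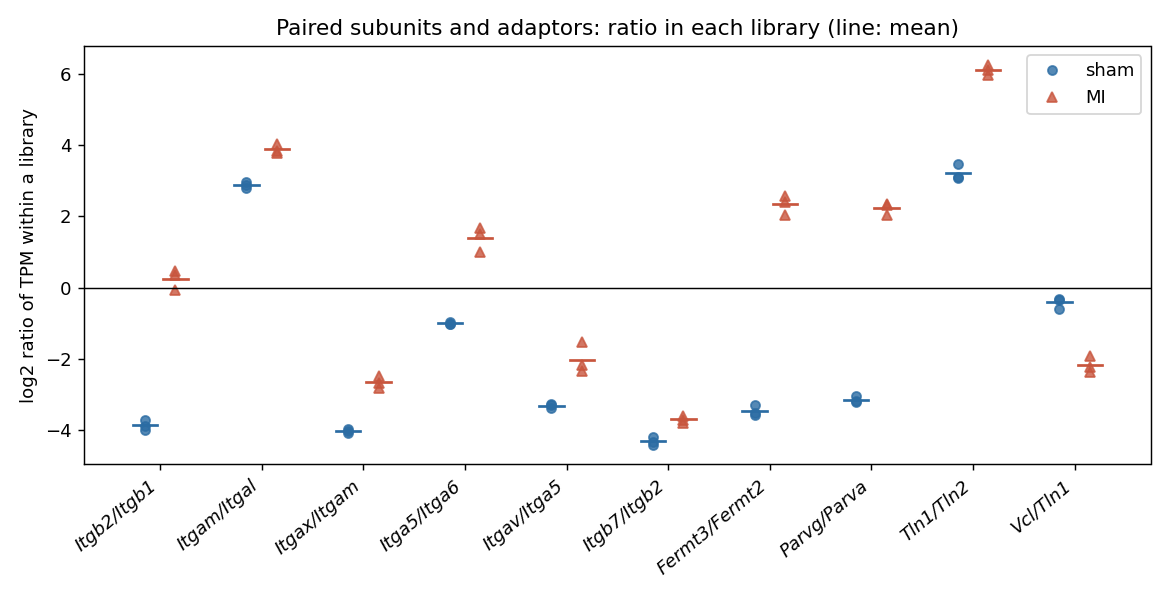
Log2 ratio of TPM between 2 members in each library for 10 pairs, with circles for sham, triangles for MI and a line at each group mean. The pairs Fermt3/Fermt2 and Parvg/Parva lie below 0 in all sham and above 0 in all MI libraries, and Vcl/Tln1 is the pair that is lower in MI.

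Among α chains, the pairs moved as well. Itga5 to Itga6, a fibronectin against a laminin receptor chain, was 0.493, 0.492 and 0.515 in sham and 2.67 ± 0.598 in MI. Itgav to Itga5 was 0.102, 0.0953 and 0.104 in sham and 0.253 ± 0.0790 in MI, with MI 1 at 0.343 and the other MI libraries at 0.196 and 0.2196. Itgam to Itgal went from 7.36 ± 0.438 to 14.8 ± 1.47, Itgax to Itgam from 0.0614 ± 0.00213 to 0.159 ± 0.0193, and Itgb7 to Itgb2 from 0.0501 ± 0.00407 to 0.0770 ± 0.00543.

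Composition of the β pool differed between the groups. Itgb1 made up 83.9 ± 0.372% of the summed TPM of the 8 β chains in sham and 34.1 ± 4.90% in MI (SD, n = 3). Itgb2 made up 5.77 ± 0.558% and 40.1 ± 2.13%, and Itgb5 9.43 ± 0.341% and 22.2 ± 2.41%. The summed TPM of the 8 chains was 629.9 ± 16.4 in sham and 1072 ± 56.5 in MI. Among the α partners of Itgb2, Itgam held 83.4 ± 0.439% in sham and 81.5 ± 1.70% in MI. Itgal went from 11.4 ± 0.632% to 5.53 ± 0.421% and Itgax from 5.12 ± 0.204% to 11.7, 14.3 and 12.8% in MI 1, 2 and 3. The 4 α chains together came to 33.3 ± 1.77 TPM in sham and 367 ± 51.5 TPM in MI, beside 36.3 ± 2.56 and 429 ± 3.40 TPM of Itgb2. Their sum over Itgb2 was 0.924 ± 0.113 in sham and 0.856 ± 0.121 in MI, a difference smaller than either SD; this quotient was chosen after the values were seen.

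**Figure D4:**
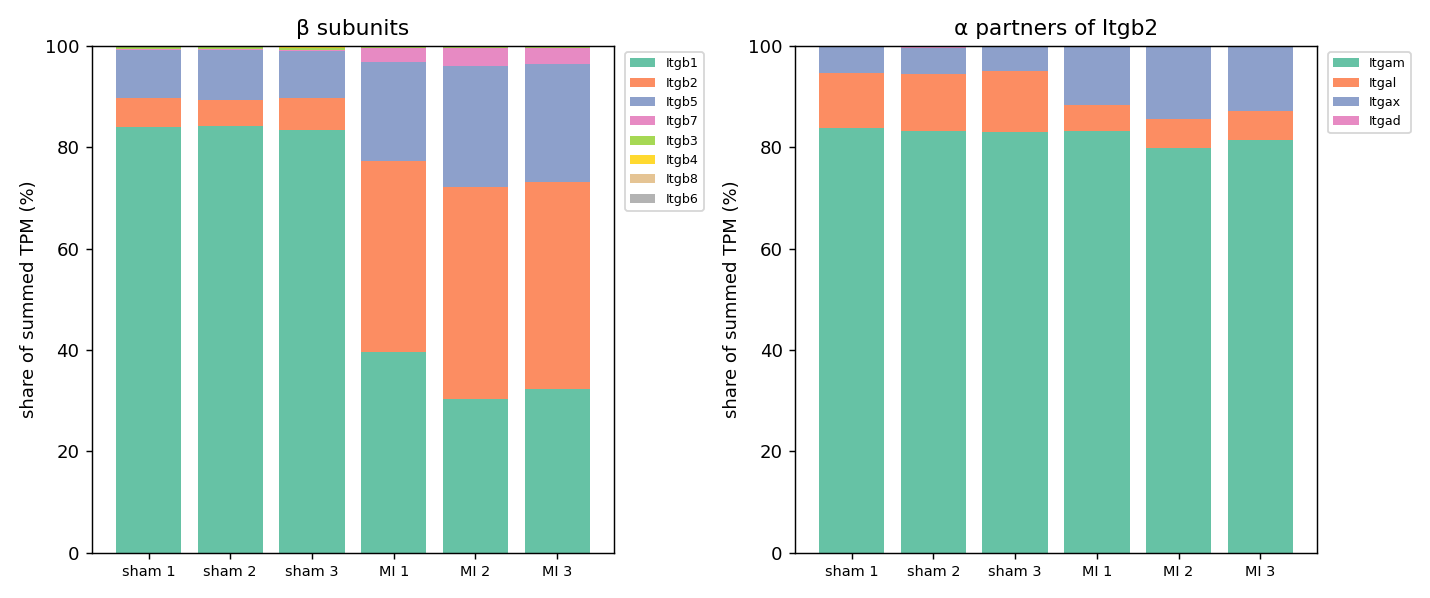
Share of each β chain in the summed TPM of the 8 β chains (left) and of each α partner of Itgb2 in their summed TPM (right), in percent for each library. Itgb1 takes 83.5 to 84.2% in sham and 30.4 to 39.7% in MI, while Itgam takes 79.8 to 83.9% of the α partners in all 6 libraries.

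MI 1 stood apart from MI 2 and MI 3 for some members. Of 25 members with at least 5 CPM in every MI library, Itga4, Itgav, Itga1 and Itga6 were more than 1.3 times as high in MI 1 as in the mean of the other MI libraries, at log2 ratios of 0.69, 0.60, 0.56 and 0.46. Among all 10114 tested genes at that level, 1225 exceeded 1.3 times in the same way, so this spread is not particular to the members. Itgb7, Fermt3, Itgb5 and Parvg were lower in MI 1, at -0.29, -0.28, -0.24 and -0.23. The log2 ratio rose with the transcript length implied by the deposited counts and FPKM (Spearman's rho 0.765 across 25 genes, and 0.643 across all 10114 tested genes at that level). These are correlations across genes of the same libraries and depths, given as a description, and the part of length in the spread was not tested. The highest MI library was 1.19 times the lowest in the median member, against 1.14 times in sham. Over all 10114 genes these medians were 1.20 and 1.17 times. Without MI 1, 15 members were higher and 11 lower, the same counts as with it, beside 40.9% of all genes called higher and 40.1% lower in that fit (80.9% in all).

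**Figure D5:**
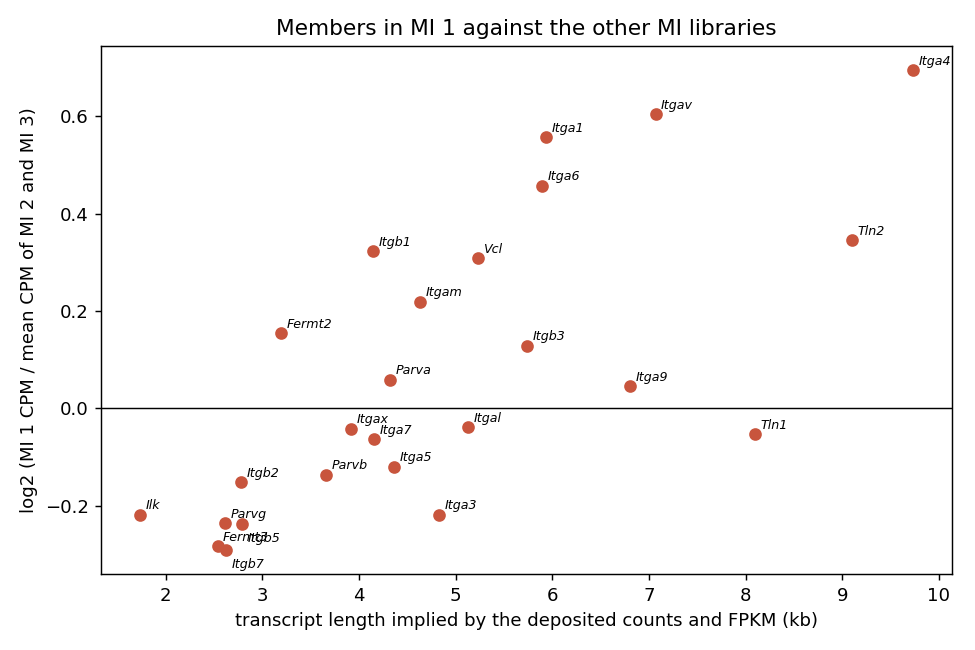
Log2 ratio of CPM in MI 1 to the mean of MI 2 and MI 3 (vertical axis) against the transcript length implied by the deposited counts and FPKM in kb (horizontal axis), for 25 members with at least 5 CPM in every MI library. Itga4, the longest, lies highest at 0.69, and Itgb7 lowest at -0.29.

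Other genes of the integrin pathway were read from 5 lists. Of all 13370 genes tested, 73.3% were called, 36.4% higher and 36.9% lower, and the counts of each list stand beside these shares. Of 35 genes for scaffold and signalling proteins of adhesions, all tested, 12 rose and 17 fell (82.9% called, median -0.20). Fgr, a Src-family kinase of myeloid cells, was at 0.507 ± 0.444 TPM in sham, from 9 counts in all, and 61.3 ± 3.56 TPM in MI. Tns3, a tensin that binds β tails, rose 8.16-fold from 8.94 ± 0.378 to 62.9 ± 7.10 TPM. Lims2, the partner of Ilk also called PINCH2, fell 6.23-fold from 431 ± 4.91 to 62.1 ± 3.78 TPM, and the adaptor gene Nck1 fell 6.11-fold. Among the genes named after their values were seen, the focal adhesion kinase gene Ptk2 went from 57.6 ± 1.59 to 16.3 ± 2.13 TPM and fell, while its relative Ptk2b went from 5.62 ± 2.85 to 71.7 ± 2.15 TPM and rose. Paxillin (Pxn) rose from 77.8 ± 2.02 to 149 ± 1.23 TPM, and leupaxin (Lpxn), its relative in blood cells, from 10.8 ± 2.71 to 116 ± 7.99 TPM. A further relative on the list, Tgfb1i1, fell from 56.0 ± 1.84 to 16.9 ± 0.162 TPM.

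Of the regulators of integrin activation, 9 were higher and 4 lower of 15 tested (18 listed, median 0.87). That is 86.7% called, beside 73.3% of all genes. Apbb1ip, which encodes RIAM, the link from Rap1 to talin, rose 10.5-fold from 8.66 ± 0.897 to 82.3 ± 9.80 TPM, and Fyb, an adaptor of blood cells, rose 10.8-fold from 15.8 ± 0.726 to 157 ± 23.1 TPM. Skap2, a partner of Fyb, rose 3.16-fold. Rasgrp2, the Rap1 activator whose product CalDAG-GEFI is best known from platelets, fell 4.03-fold from 102 ± 6.48 to 25.3 ± 1.70 TPM. Of 11 genes for membrane partners of integrins, 7 rose and 4 fell (median 1.87), beside 36.4% of all genes higher and 36.9% lower. Plaur, the urokinase receptor, rose 9.68-fold from 72.0 ± 2.71 to 622 ± 24.3 TPM, and the tetraspanin gene Cd53 5.83-fold. The tetraspanin gene Cd63 rose 5.27-fold and the syndecan gene Sdc4 4.47-fold. Cd151, the tetraspanin that binds laminin receptors, was named after its value was seen and fell from 322 ± 7.14 to 73.2 ± 3.87 TPM.

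Ligands of the 2 classes were also listed. Of 12 listed ligand genes of leukocyte integrins, 7 were tested, 3 rose and 3 fell (median 0.14). That is 85.7% called, beside 73.3% of all genes (36.4% higher, 36.9% lower). Icam1, the inducible ligand of LFA-1 and Mac-1, rose 1.83-fold from 240.5 ± 6.01 to 394 ± 4.34 TPM, while Icam2, the constitutive endothelial ligand, fell 4.69-fold from 344 ± 8.35 to 67.4 ± 3.54 TPM. Jam3, a junction protein that binds Mac-1, fell 7.32-fold, and the complement gene C3, whose fragment iC3b binds Mac-1, rose 5.73-fold. Of 18 matrix ligand genes, all tested, 7 rose and 9 fell (88.9% called, median -0.13). Osteopontin (Spp1), an RGD-bearing ligand, rose 349-fold from 31.5 ± 9.96 to 9800.5 ± 774 TPM. Thbs1, which encodes thrombospondin, rose 48.2-fold, fibronectin (Fn1) 7.56-fold from 65.9 ± 2.08 to 454 ± 48.9 TPM, and Col1a1 6.30-fold. All 4 laminin chain genes on the list, named after their values were seen, were lower in MI, from -1.44 for Lama4 to -0.47 for Lamc1 on the log2 scale. So were the basement membrane collagen genes Col4a1 (fold 2.22 lower) and Col4a2 (fold 1.99 lower).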

How the data were processed

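For every gene and library the authors deposited an estimated count, not scaled, beside FPKM and TPM of their own making. A further deposited signal column holds the authors' scaled count, equal to the count over a factor that is almost the same for all genes of a library; both descriptions come from the values and headers. The submitters' processing notes name the build GRCm38.p6; aligner, counter and strand setting are not given in the sources used here. Counts, rounded, were filtered with filterByExpr, scaled by TMM and fitted by group in edgeR 4.0.16 (R 4.3.3); 13370 genes were tested, called at a Benjamini-Hochberg adjusted p below 0.05. The SE was derived from the log2 fold change and its F statistic. FPKM served to derive length and the scaled count was only inspected. Levels and ratios used TPM, with two-sided exact permutation tests. DESeq2 1.42.0, limma 3.58.1 on log2(TPM + 1) and log2(TPM + 0.1), other scalings and filters, thinning and omission of each library were alternatives. Scripts were tested on simulated data in which few genes differed, equally in both directions, so that test could not judge the scaling used here. All members are named; of each pathway list, the 4 genes with the smallest p. Members and lists were chosen with earlier results of these data known. Paralogs and overlapping genes may share reads.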

Additional observations from a re-analysis of the deposited data

How the results depend on the processing

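Over all alternatives 13 to 15 members were called higher and 9 to 13 lower, of 30 tested (MI thinned) to 36 (no filter). Over all genes, the share of higher among the calls of these fits ran from 34.9% (total counts) to 52.5% (DESeq2). The 5 leukocyte-restricted subunits tested in the main fit were higher in every alternative. Scaling to total counts moved the median of all genes to -0.36 and the share of higher among all calls from 49.6% to 34.9%; limma on TPM gave 43.0%. The log2 fold change of Parvb was -0.058 with total counts. For 2 members that were not called the sign changed: Itga2 was 0.0093 in limma on log2(TPM + 0.1) and ran from -0.51 to 0.29 with a library left out, and Itga2b was -0.0021 and -0.016 in limma on log2(TPM + 0.1) and log2(TPM + 1), -0.27 with total counts, and -0.17 to 0.41 with a library left out. CPM in place of TPM, which ignores length, gave shares in sham and MI of 88.0% and 43.1% for Itgb1, 4.06% and 34.1% for Itgb2, 6.85% and 19.6% for Itgb5, 12.05% and 6.20% for Itgal, and 4.44% and 11.1% for Itgax; the summed α chains over Itgb2 came to 1.54 and 1.41. The median of the adaptors was 0.098 with no filter. With the replicate number as a replicate block, 15 members were higher and 11 lower of 31 tested, as without it. In that fit 4764 of all 13370 genes tested were higher and 4871 lower. Deviations from the group means correlated at -0.068, -0.037 and 0.00012 between same-numbered libraries. These values show no shared deviation in expression, and cannot tell whether the libraries were paired in preparation. The sham depth limits genes of few counts, such as Itgad, Itgae, Itgb6, Itgb8 and Fermt1.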
